A study of Mus musculus with 721 samples.

Results

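The Notch pathway genes described here are 9 of the 24483 gene rows of a single-cell count table from early mouse embryos. They were chosen by symbol as named components of the pathway, with earlier results of these data known, and each symbol matched 1 row. The members are the ligand genes Dll1, Dll3 and Jag1, the receptor genes Notch1, Notch2 and Notch3, the fringe gene Lfng, the transcription factor gene Rbpj and the target gene Hes1. The table holds whole read counts for single cells of wild-type C57Bl/6Babr embryos, 37 as counted from the labels. That count takes 9 E3.5 cells with no embryo number as 1 embryo, and takes the 4 E6.5 embryos without a plate name as separate from the same-numbered embryos of plate P1, which the labels do not settle, so the number of distinct embryos may differ. With those E6.5 embryos merged into plate P1, 1 member call was lost, that of Dll3 from E4.5 primitive endoderm-like to E6.5 endoderm-like cells. Stages are in days of gestation, and E3.5 gave 99 cells, E4.5 gave 105, E5.5 gave 267 and E6.5 gave 250, made as full-length cDNA libraries from poly(A) RNA. No embryo carried an engineered allele or was treated.

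The trophectoderm had been lysed at E3.5 and E4.5, the epiblast and visceral endoderm had been separated by hand at E5.5, and extraembryonic tissue had been cut away at E6.5. The deposited labels give stage, plate and embryo but, apart from 5 E5.5 wells named as visceral endoderm (VE), no lineage, so cells were clustered without the Notch genes and the clusters were named from marker genes. At E4.5 there were 29 epiblast-like and 76 primitive endoderm (PrE)-like cells, at E5.5 260 epiblast-like and 7 endoderm-like cells, and at E6.5 181 epiblast-like, 46 endoderm-like and 23 streak-like cells. All 23 streak-like cells came from 1 embryo, so the streak-like class and that embryo cannot be told apart except against the 7 epiblast-like cells of the same embryo. By a rule set after seeing the data, only the E6.5 cluster with most cells without a plate name was searched for streak-like cells. Cells of the other clusters could not be given that name, and whether other embryos held such cells was not tested. Counts of the same class and embryo were added up, and sums of at least 3 cells entered the comparisons. The embryo was the replicate, which gave 10 sums at E3.5. There were 5 epiblast-like and 5 PrE-like sums at E4.5 and 8 epiblast-like sums at E5.5. The E6.5 embryos gave 13 epiblast-like sums, 8 endoderm-like sums and 1 streak-like sum. Levels are in CPM, a gene's counts scaled to a common library total, after TMM scaling of library sizes.

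Cells held 66896 to 3792936 counts, with a median of 692863. Plate names P1 and P2 recurred at several later stages, and the label P11.P6.P10, which names several plates, was shared by E3.5 and E5.5 cells. The labels do not say whether plates of the same name were the same plate, so stage and plate cannot be told apart. At E6.5, 9 embryos came from plates P1 to P3 and 4 had no plate name, 2 of which were titled E6.75. Of the 15 endoderm markers, the summed level was 7409 to 14190 CPM in the PrE-like sums and 1481 to 4165 CPM in the E4.5 epiblast-like sums. These were above the 401 to 1012 CPM at E3.5 and the 348 to 657 CPM in E5.5 epiblast-like sums. In an E4.5 epiblast-like sum 2 to 12 of the 15 were at 0. Most of that level was Apoe, with a mean of 2394 CPM in E4.5 epiblast-like and 2099 CPM in PrE-like sums. Next in the E4.5 epiblast-like sums were Cubn, Amn and Dab2, with means of 152, 82.1 and 80.4 CPM. Gata6, Gata4, Sox17, Pdgfra and Foxa2 had means of 0.443 to 11.3 CPM there. Of the 10 epiblast markers, the summed level was 3800 to 5268 CPM in E4.5 epiblast-like and 711 to 1916 CPM in PrE-like sums, where up to 3 were at 0. At E6.5 the endoderm markers summed to 521 to 6178 CPM in epiblast-like, 10860 to 30980 CPM in endoderm-like and 2433 CPM in streak-like cells, and globin genes were among the leading genes of the endoderm-like cells. The 10 streak markers summed to 1419 CPM in streak-like cells and 61.5 to 640 CPM in the epiblast-like sums. The part of these marker levels in the Notch gene differences was not tested.

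In Notch signalling, a ligand on the surface of a cell binds a receptor on its neighbour, the receptor is cut by an ADAM protease and then by gamma-secretase, and the freed intracellular domain enters the nucleus and joins Rbpj on DNA. Without that domain Rbpj can bind with corepressors, and with it target genes of the Hes and Hey families are switched on. Fringe enzymes, such as the product of Lfng, add a sugar to the receptor and so change which ligands it answers to, and Dll3 is a divergent ligand that stays mostly inside the cell. In the mouse embryo the pathway is best known for the segmentation of the mesoderm that leaves the primitive streak, where Dll1, Dll3 and Lfng are needed.

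Promoter windows of the 250 bases before a RefSeq start site (GRCm38.p6), which need not be the outermost start of the gene, matched 8 of the 9 members with 10 windows, leaving out Hes1. The 4 printed here belong to Dll1, Dll3 and Lfng, which in streak-like cells were above every E6.5 epiblast-like sum, and to Rbpj, whose level set the E4.5 epiblast-like cells apart. Windows wholly inside the gene positions given below are those of Dll3 and Rbpj among the 4. They are given 5′ to 3′ on the gene's strand. The capitals mark the core letters to which Rbpj itself is known to bind, TGGGAA, or TTCCCA on the other strand, extended by the G of GTGGGAA where that is present.
Dll1 (chr17:15376933-15377182, minus strand): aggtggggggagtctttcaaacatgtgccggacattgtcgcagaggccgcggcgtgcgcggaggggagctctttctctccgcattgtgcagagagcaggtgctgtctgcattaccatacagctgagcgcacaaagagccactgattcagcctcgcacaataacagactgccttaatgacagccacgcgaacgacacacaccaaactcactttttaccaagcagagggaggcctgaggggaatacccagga
Dll3 (chr7:28301786-28302035, minus strand): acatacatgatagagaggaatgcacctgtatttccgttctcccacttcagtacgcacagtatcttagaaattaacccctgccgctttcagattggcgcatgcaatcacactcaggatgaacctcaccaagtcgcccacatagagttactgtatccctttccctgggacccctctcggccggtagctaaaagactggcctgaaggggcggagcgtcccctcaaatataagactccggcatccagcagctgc
Lfng (chr5:140607091-140607340, plus strand): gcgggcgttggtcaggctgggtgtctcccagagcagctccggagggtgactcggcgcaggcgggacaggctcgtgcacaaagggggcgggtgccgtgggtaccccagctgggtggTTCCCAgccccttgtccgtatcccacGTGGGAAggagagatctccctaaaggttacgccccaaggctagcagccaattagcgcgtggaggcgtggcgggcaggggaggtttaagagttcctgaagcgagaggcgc
Rbpj (chr5:53590096-53590345, plus strand): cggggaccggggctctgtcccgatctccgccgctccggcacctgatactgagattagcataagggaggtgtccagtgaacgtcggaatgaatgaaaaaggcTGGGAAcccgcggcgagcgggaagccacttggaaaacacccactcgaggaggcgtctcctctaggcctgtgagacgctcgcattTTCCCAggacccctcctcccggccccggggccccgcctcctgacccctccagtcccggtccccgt
The Lfng window held the core 135 and 108 bases before the start and the Rbpj window 149 and 65 bases before it, while the Dll1 and Dll3 windows had no match. The core was found in 3 of the 10 member windows, which belong to Lfng and Rbpj, and in 21.6% of all 32851 windows. The Rbpj windows overlap each other. The core 65 bases before the start of the printed Rbpj window is also the only core of the other, so that site is counted again. The longer form GTGGGAA, which contains the core, was in the Lfng window only and in 5.42% of all windows. The letters TCACACC, or in reverse complement GGTGTGA, known as part of the site bound by the streak factor T, were in none of the member windows and in 3.33% of all windows.

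Rbpj was highest and Hes1 low in E4.5 epiblast-like cells, Notch1 was lower in the E6.5 than in the E5.5 epiblast, and Notch3 was at 0 at E3.5 and highest at E5.5. In the streak-like cells Dll1, Dll3, Lfng and, by a narrow margin, Notch1 were above every E6.5 epiblast-like sum, and Jag1 was above those without a plate name. Between E3.5 and E4.5 epiblast-like cells 4 of the 8 members that could be tested passed edgeR's quasi-likelihood test (adjusted p of at most 0.05 and an absolute log2 fold change over 1), 3 higher and 1 lower, where 20.7% of the 13273 genes tested passed. Between E4.5 and E5.5 it was 3 of 8, 2 higher and 1 lower, against 6.22%, and between E5.5 and E6.5 it was 2 of 8, both lower, against 8.14%. In PrE-like against epiblast-like cells 2 of 6 passed against 14.1%, in E6.5 endoderm-like against epiblast-like cells 2 of 7 against 8.35%, and in E6.5 endoderm-like against PrE-like cells 2 of 6 against 7.65%. Both E6.5 endoderm-like counts include Dll3. The one against epiblast-like cells also includes Notch3, and the one against PrE-like cells Notch1. The first epiblast step includes Dll1 and Notch3, and the last includes Dll1. Each of these genes, in the comparison named with it, passed the filter on low counts only through groups where it was higher. Nothing is read from those calls. Between E3.5 and PrE-like cells 0 of 6 passed with edgeR and 0 with DESeq2, where 14.8% of all genes passed, and 2 had an unadjusted p of at most 0.05. The median log2 fold change of the tested members was 0.87, 1.12 and −0.33 over the 3 epiblast steps, beside 0, 0.14 and 0 for all genes tested.

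Rbpj, the DNA-binding partner of the Notch intracellular domain, lies on chromosome 5 at 53466152 to 53657362 (GRCm38, GENCODE vM21). Its level was highest in the epiblast-like cells of E4.5. The 5 embryos had 162, 190, 140, 195 and 241 CPM (mean 185.6 ± 38.4, SD, n = 5). At E3.5 the 10 embryos ranged from 16.3 to 101 CPM with a median of 51.3, and the 8 E5.5 epiblast-like sums ranged from 18.5 to 37.4 CPM with a median of 24.3. Every E4.5 epiblast-like sum was therefore above every sum of the stage before and after. With edgeR's quasi-likelihood test over all genes, Rbpj rose from E3.5 (log2 fold change 1.71 ± 0.34, SE, adjusted p = 0.000249) and fell by E5.5 (−2.87 ± 0.37, adjusted p = 9.13e-07). From E5.5 to E6.5 no change was called (log2 fold change 0.35, adjusted p = 0.515), the 13 E6.5 epiblast-like sums lying between 16.2 and 47.1 CPM.

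In the PrE-like cells of the same 5 embryos Rbpj was at 42.7, 19.0, 25.8, 14.4 and 20.8 CPM, in the same embryo order, so it was lower in the PrE-like cells of 5 of 5 embryos with no overlap between the classes (log2 fold change −2.89 ± 0.35, edgeR adjusted p = 0.000142). All 29 epiblast-like cells had at least 10 CPM of Rbpj. In the PrE-like class 42 of 76 cells reached that level. At E6.5 the endoderm-like sums ranged from 7.90 to 49.6 CPM and the epiblast-like sums from 16.2 to 47.1, with no call between them (adjusted p = 0.924). The difference between endoderm-like and epiblast-like cells itself differed between E4.5 and E6.5 (interaction 2.93 ± 0.53 on the log2 scale, edgeR adjusted p = 0.00141), a test that called 1.93% of the genes. The 3 Rbpj calls kept their side of the threshold in every alternative and with any embryo left out. Rbpj overlaps the antisense genes Gm10441 and Gm40304, and whether the counting used strand is not given in the sources used here.

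Hes1, a repressor of transcription and the best known direct target of the pathway, was low where Rbpj was high. Its row starts at 30064384 on chromosome 16. The E4.5 epiblast-like sums had 1.14, 3.54, 13.9, 11.6 and 1.97 CPM. The PrE-like sums of the same embryos had 35.9, 39.0, 39.4, 49.1 and 36.3 CPM. PrE-like cells were thus above epiblast-like cells in 5 of 5 embryos without overlap (log2 fold change 2.63 ± 0.67, edgeR adjusted p = 0.0162). The call was lost with cells labelled single only (2.25, adjusted p = 0.0594) and with classes taken from a per-cell marker score (1.58, adjusted p = 0.13). Of the 29 epiblast-like cells, 6 had at least 10 CPM of Hes1 (20.7%, and 0% to 42.9% by embryo). All 29 had Rbpj at that level, so the 23 with Rbpj but not Hes1 are simply the cells without Hes1. In the PrE-like class 10 of 76 cells had Rbpj without Hes1.

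**Figure D1:**
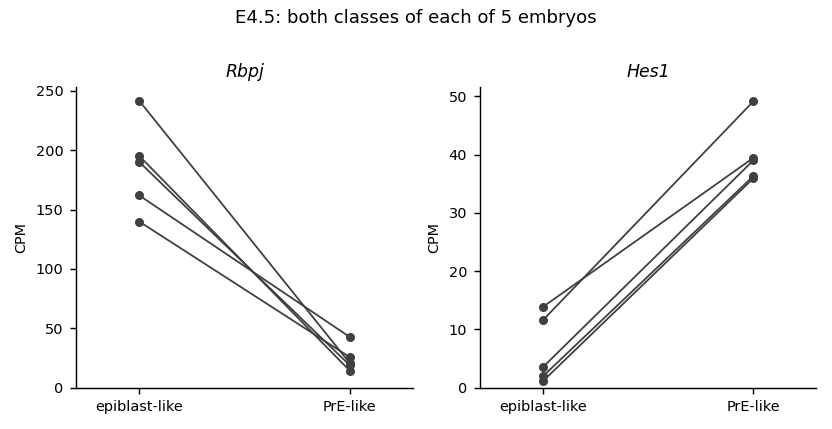
Rbpj (left) and Hes1 (right) in CPM in the epiblast-like and PrE-like cells of the 5 E4.5 embryos, with 1 point per sum and a line joining the classes of an embryo. Rbpj falls from 140 to 241 CPM in epiblast-like cells to 14.4 to 42.7 CPM in PrE-like cells in every embryo, and Hes1 goes the other way.

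Across the epiblast stages Hes1 fell from E3.5 to E4.5 (log2 fold change −2.90 ± 0.69, edgeR adjusted p = 0.00167) and was higher again at E5.5 (2.38 ± 0.68, adjusted p = 0.0248). The 8 E5.5 epiblast-like sums ranged from 21.7 to 56.0 CPM and lay above all 5 E4.5 sums. The E3.5 sums overlapped them, and their level followed the plate. The 5 embryos of plate P8 had 45 to 141 CPM, the 4 of plate P9 had 5.45 to 23.0 CPM, and the sum of the remaining plate label had 53.4 CPM. Against plate P9 alone the fall was not called (−1.11, adjusted p = 0.258), while against plate P8 alone it was (−3.48, adjusted p = 0.000181), and it was not called with sums of at least 5 cells (−1.59, adjusted p = 0.103). The rise to E5.5 was not called with marker score classes (1.42, adjusted p = 0.229), nor without E4.5 embryo 1 or 2 of plate P1 or embryo 5 of plate P2. At E6.5 the epiblast-like mean was 44.0 ± 31.2 CPM (SD, n = 13), the endoderm-like mean 48.9 ± 25.4 CPM (SD, n = 8) and the streak-like value 33.7 CPM, with no call for either against the epiblast-like sums. The 5 E5.5 endoderm-like cells of 1 embryo that gave a sum had 64.0 CPM of Hes1, 28.7 of Rbpj and 19.3 of Notch2, and no count of the other 6 members.

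**Figure D2:**
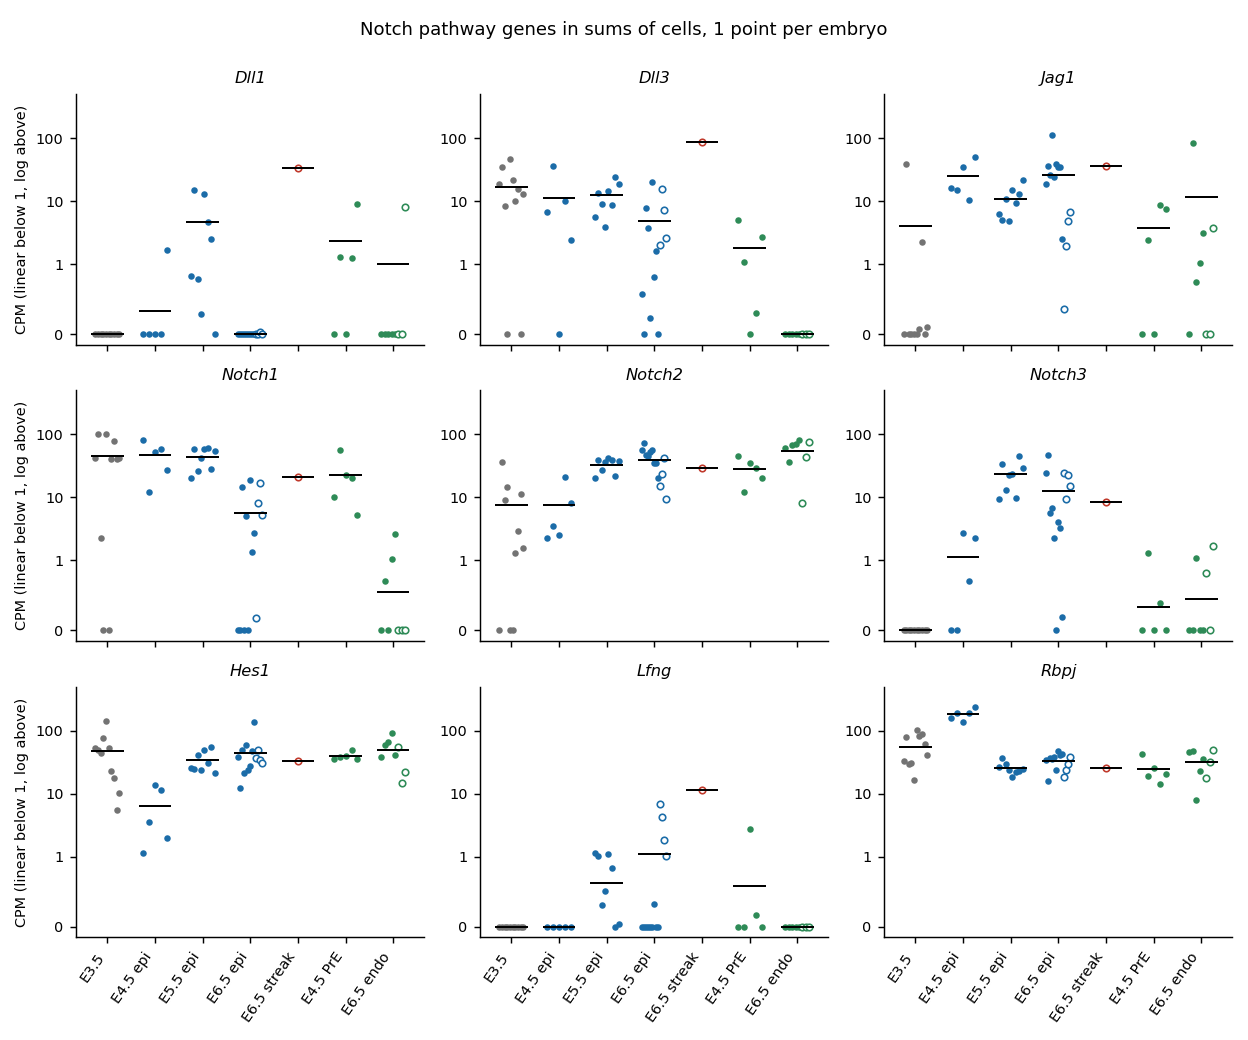
Level of each of the 9 genes in CPM (vertical axis, linear below 1 and logarithmic above), with 1 point per embryo sum in each class, a bar at the mean and open points for embryos without a plate name. Rbpj peaks and Hes1 dips in E4.5 epiblast-like cells, and the streak-like sum stands above all 13 E6.5 epiblast-like sums for Dll1, Dll3, Lfng and, narrowly, Notch1.

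The leading receptor differed between the stages. Notch1 was the leading receptor at E3.5 and in E4.5 epiblast-like cells, at 4.75 and 4.91 CPM per kb of transcript against 0.732 and 0.719 for Notch2, and Notch2 led in E6.5 epiblast-like cells at 3.75 CPM per kb against 0.597 for Notch1 and 1.59 for Notch3. At E5.5 the 3 receptors were close, at 4.58, 3.15 and 2.91 CPM per kb for Notch1, Notch2 and Notch3. These orders compare mean levels divided by the longest coding transcript, and were not tested between genes.

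Notch1 (chromosome 2, 26457903 to 26516663) was at 80.5, 12.4, 53.6, 59.8 and 26.8 CPM in the E4.5 epiblast-like sums and at 20.0 to 60.3 CPM (median 47.8) in the 8 E5.5 sums. In the 13 E6.5 epiblast-like sums it ranged from 0 to 19.08 CPM with a median of 2.69. All 13 lay below all 8 of E5.5 (log2 fold change −2.92 ± 0.85, edgeR adjusted p = 0.0191). With the 4 E6.5 embryos without a plate name alone the value was −2.52 (adjusted p = 0.311). The share of cells with at least 10 CPM was 42.7% over all E5.5 epiblast-like cells and 16.6% over those of E6.5. Cells of an embryo are not independent, and by embryo the share was 22.2% to 53.3% at E5.5 (median 44.8%, 8 embryos) and 0% to 31.5% at E6.5 (median 8.33%, 13 embryos), with overlap. At E6.5 it was 9.28% of the cells of plates P1 to P3 (9 of 97) and 21 of 84 cells without a plate name. In PrE-like cells Notch1 was at 10.2, 57.1, 22.9, 20.2 and 5.20 CPM, and in the 8 E6.5 endoderm-like sums at 0 to 2.63 CPM, all below all of PrE (−5.33 ± 1.31, adjusted p = 0.00973). That call was lost when sums of fewer than 3 cells were let in (−0.54, adjusted p = 0.917). Notch1 passed the filter on low counts in that fit only through the E3.5 and PrE-like sums, so nothing is read from this call. Notch1 did not pass the test between PrE-like and epiblast-like cells at E4.5 (adjusted p = 0.329), nor between endoderm-like and epiblast-like cells at E6.5 (−3.24, adjusted p = 0.152). The gene overlaps 0610009E02Rik and Gm13568 on the other strand.

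Notch2 (chromosome 3, 98013527 to 98150361) was at 0 to 36.1 CPM at E3.5 (median 2.24) and at 2.28, 3.54, 2.50, 21.3 and 8.18 CPM in E4.5 epiblast-like sums. The E5.5 epiblast-like sums had 20.6 to 41.9 CPM, of which 7 of 8 were above all 5 of E4.5, but the difference did not pass the test (log2 fold change 2.09 ± 0.95, adjusted p = 0.195). PrE-like sums had 45.7, 12.0, 34.7, 29.3 and 20.7 CPM. Their difference from epiblast-like sums was not called by edgeR (1.92 ± 0.72, adjusted p = 0.0924) and was called by DESeq2 (adjusted p = 0.0354) and without embryo 4 of plate P2 (0.0186). The highest mean was that of E6.5 endoderm-like cells, 55.6 ± 24.5 CPM (SD, n = 8), where 39 of 46 cells had at least 10 CPM, and its range of 8.23 to 81.1 CPM overlapped the 9.33 to 71.8 CPM of the epiblast-like sums.

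Notch3 (chromosome 17, 32120820 to 32166852) had no count in any E3.5 cell. It was at 0, 0, 2.77, 0.703 and 2.27 CPM in the E4.5 epiblast-like sums, 29 counts in all. That is at least 28.5-fold higher than E3.5 over the groups (edgeR adjusted p = 0.000537), with the E3.5 group taken at 3 counts. Notch3 passed the filter on low counts in that fit only through the E5.5 and E6.5 sums, so nothing is read from this call. At E5.5 Notch3 was at 9.35 to 45.3 CPM, above all E4.5 sums (log2 fold change 4.24 ± 1.28, edgeR adjusted p = 0.0382). The call from E4.5 to E5.5 was lost with sums of 1 or 2 cells included (adjusted p = 0.059), without the E6.75 embryos (0.0527), with the E6.5 plates P1 to P3 alone (0.0643) and in 10 of the 36 fits that left out an embryo. At E5.5 38.1% of epiblast-like cells had at least 10 CPM, and by embryo 24.4% to 58.8%. Endoderm had little of it, with 0, 1.31, 0, 0.397 and 0 CPM in the PrE-like sums and 0 to 1.67 CPM at E6.5, against 0 to 46.6 CPM (median 6.93) in E6.5 epiblast-like sums. Notch3 was lower in E6.5 endoderm-like than in epiblast-like cells (−4.67 ± 1.3, edgeR adjusted p = 0.0195). It passed the filter on low counts there only through the epiblast-like sums, so nothing is read from this call. With the embryo as a block, over the embryos that gave both classes, the value was −5.64 and the call was lost (adjusted p = 0.0614), as it was with sums of at least 5 cells (0.184), without the E6.75 embryos (0.0788) and with plates P1 to P3 alone (0.0571). The antisense gene Gm17276 overlaps Notch3.

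**Figure D3:**
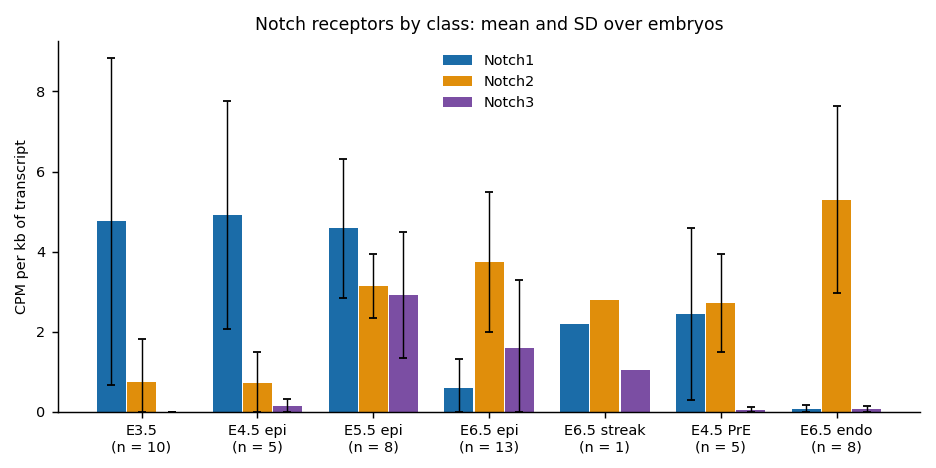
Mean level of Notch1, Notch2 and Notch3 in CPM per kb of the longest coding transcript in each class, with SD over embryo sums as error bars, cut at 0, and none for the single streak-like sum. Notch1 is the tallest bar up to E5.5 in the epiblast classes, and Notch2 at E6.5 and in both endoderm classes.

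The plate label shared by E3.5 and E5.5 cells covered 1 E3.5 sum and the epiblast-like sums of E5.5 embryos 7 and 8. Under that label Notch2 was at 0 CPM at E3.5 and at 20.6 and 39.0 CPM at E5.5, and Notch3 at 0 CPM and at 9.35 and 33.8 CPM. Notch1 was at 42.5 CPM at E3.5, between the 20.0 and 57.8 CPM of E5.5, and Hes1 at 53.4 CPM against 25.5 and 24.6 CPM. These are single sums, with no test.

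Cells seldom held several receptors at E3.5, where 3 of 99 cells had 2 of them at 10 CPM or more and none had all 3. In E5.5 epiblast-like cells 74 of 260 had 2 and 34 had 3, and in E6.5 epiblast-like cells 36 of 181 had 2 and 11 had 3. Among the E6.5 endoderm-like cells 36 of 46 had exactly 1 and 3 had 2. Among the streak-like cells 10 of 23 had 2 and 8 had 3. These counts include wells labelled as doubles, 9 at E3.5, 66 in E5.5 epiblast-like and 9 in E6.5 epiblast-like cells. Among the wells labelled single, a restriction chosen after seeing the data, 2 or 3 receptors were found in 2 of 90 at E3.5, in 69 of 194 in E5.5 epiblast-like cells (35.6%, against 41.5% with doubles) and in 43 of 172 in E6.5 epiblast-like cells.

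The ligand Dll1 (chromosome 17, 15367354 to 15376872) had no count in the E3.5 cells. At E4.5 it was found in the epiblast-like cells of 1 embryo of 5, at 1.67 CPM from 11 counts. The call against E3.5 (at least 10.8-fold higher with E3.5 taken at 3 counts, edgeR adjusted p = 0.00806) rests on that embryo, since without it no count is left. At E5.5 Dll1 ranged from 0 to 15.1 CPM with a median of 1.66, and 19 of 260 epiblast-like cells in 6 embryos had at least 10 CPM (7.31%, and 0% to 22.9% by embryo). The step from E4.5 was not called (adjusted p = 0.167, and 0.0267 without the E4.5 embryo with counts). In PrE-like cells Dll1 was at 0, 1.31, 0, 1.26 and 9.15 CPM in the 5 embryos, 206 counts in all, with 5 of 76 cells at 10 CPM or more, and it was not tested there because it did not pass the filter on low counts. At E5.5 a single embryo held 649 of the 1058 counts of that class, 404 of them in 1 cell. In the 181 E6.5 epiblast-like cells there was 1 count, and the ratio of E5.5 to E6.5 was 697 (exact 95% interval 125 to 27500, for counting error only). The fall was called (edgeR adjusted p = 4.3e-05) and was not called against the 4 embryos without a plate name alone (0.092). Dll1 passed the filter on low counts in that fit only through E5.5 sums and the E4.5 sum with counts, so nothing is read from this call. Of the 36 fits that left out an embryo, 32 could test it. Dll1 overlaps A930024N18Rik on the other strand.

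Dll3 (chromosome 7, 28293553 to 28302238) was present from the start, at 0 to 46.1 CPM at E3.5 (median 14.4) and 3.91 to 24.6 CPM at E5.5 (median 11.3). The E4.5 epiblast-like sums had 6.84, 36.0, 0, 10.02 and 2.42 CPM, with wide overlap with both, and the PrE-like sums had 5.03, 1.09, 0, 0.297 and 2.71 CPM. No change between neighbouring epiblast stages was called. In the 8 E6.5 endoderm-like sums Dll3 had no count, while the 13 epiblast-like sums ranged from 0 to 19.9 CPM with a median of 2.0. It was at least 69.3-fold lower in the endoderm-like cells at a floor of 3 counts over the group (edgeR adjusted p = 0.00356). Dll3 passed the filter on low counts there only through the epiblast-like sums, so nothing is read from this call. Of the 21 fits that left out an embryo, 13 could test it. With the embryo as a block, Dll3 did not pass the filter on low counts and was not tested. Dll3 was at least 19.9-fold lower than in PrE-like cells (edgeR adjusted p = 0.0147), and in that fit too it passed the filter only through the other groups. A pair of endoderm-like cells in an embryo with too few of them for a sum held 7 counts, and the call against PrE was lost when such sums were let in (adjusted p = 0.422).

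Jag1 (chromosome 2, 137081456 to 137116644), the ligand of the Serrate type, was at 16.3, 14.7, 35.0, 10.6 and 49.8 CPM in the E4.5 epiblast-like sums and at 0, 2.40, 0, 8.76 and 7.51 CPM in the PrE-like sums. The classes did not overlap, but the difference was not called by edgeR (log2 fold change −2.75 ± 1.15, adjusted p = 0.127) and was by DESeq2 (adjusted p = 0.0376). At E3.5, 6 of 10 sums were at 0 and 1 embryo of plate P8 had 38.2 CPM. The step from E3.5 to E4.5 was not called (2.63, adjusted p = 0.0981), and was called without that embryo (6.33, adjusted p = 2.2e-05). The E6.5 epiblast-like sums differed by plate, with 36.4 ± 30.5 CPM (SD, n = 9) on plates P1 to P3 and 3.45 ± 2.85 CPM (SD, n = 4) without a plate name, and pooled they did not differ from the endoderm-like sums (−1.07, adjusted p = 0.613). Without endoderm-like embryo 5 of plate P2, at 84.3 CPM, the value was −4.37 (adjusted p = 0.0166).

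Lfng (chromosome 5, 140607320 to 140615545) was at 0 in all E3.5 and all E4.5 epiblast-like sums and was too low to be tested there. It stayed at 0 to 1.15 CPM in E5.5 epiblast-like sums. At E6.5, 8 of the 9 epiblast-like sums of plates P1 to P3 were at 0, and the 4 without a plate name had a mean of 3.51 ± 2.65 CPM (SD, n = 4). The 8 endoderm-like sums were at 0.

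The E6.5 streak-like cells are marked by T, the Brachyury factor of the streak, and Mesp1, a factor of the earliest mesoderm. All 23 cells had at least 10 CPM of each, which is a description, since both genes were used to define the class. In these cells Dll3 had 86.8 CPM, Jag1 35.5, Dll1 33.7, Hes1 33.7, Notch2 29.3, Rbpj 25.5, Notch1 20.8, Lfng 11.6 and Notch3 8.33. The streak-like value was above all 13 E6.5 epiblast-like sums for Dll1, Dll3, Notch1 and Lfng, and inside their range for the others. For Notch1 the margin was narrow, with 20.8 CPM against at most 19.08 CPM. Of the 9 members only Dll1 was past the edgeR threshold, where 0.0536% of the 14923 genes tested passed. The single streak-like sum has no spread of its own and was assumed to vary like the other groups, and Dll1 passed the filter on low counts only through that sum, so nothing is read from this call. The Dll1 ratio of streak-like to epiblast-like counts, 558 to 1, was 5430 (exact 95% interval 971 to 215000, counting error only). The call was lost with DESeq2, without the E6.75 embryos, with plates P1 to P3 alone and without the epiblast-like sum of E6.75 embryo 1. The log2 fold change of Dll3 was 4.27 and was not called.

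Cell by cell, 17 of 23 streak-like cells had at least 10 CPM of Dll1 (73.9%). Dll3 reached that level in 20 cells (87.0%) and Lfng in 11 (47.8%). All are cells of 1 embryo, so these shares carry no spread between embryos. Dll1 and Dll3 were found together in 15 cells and Dll1 and Notch1 in 14. A ligand and a receptor were found in the same cell in 21 of 23 streak-like cells, with 1 cell holding only a ligand and 1 only a receptor. Pooled over embryos, both were found in 74 of 181 E6.5 epiblast-like cells and 16 of 99 E3.5 cells. Such joint counts depend on how many cells held each gene. In the streak-like cells a ligand and a receptor were each so common that most cells had to hold both. Joint presence beyond that was not tested. The median over streak-like cells was 79.5 CPM for Dll3, with a range of 2.43 to 322, and 37.8 CPM for Dll1, with a range of 0 to 90.1.

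In the 7 epiblast-like cells of the same embryo Dll1 had no count, and the summed level of Dll3 was 14.1 CPM against 97.5 in its streak-like cells. Lfng was at 3.82 against 13.02 CPM, Jag1 at 1.71 against 39.9 and Notch1 at 7.40 against 23.4, all as counts over the summed library. Hes1 was at 43.9 against 37.8 CPM. These are values of 1 embryo, with no replicate.

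**Figure D4:**
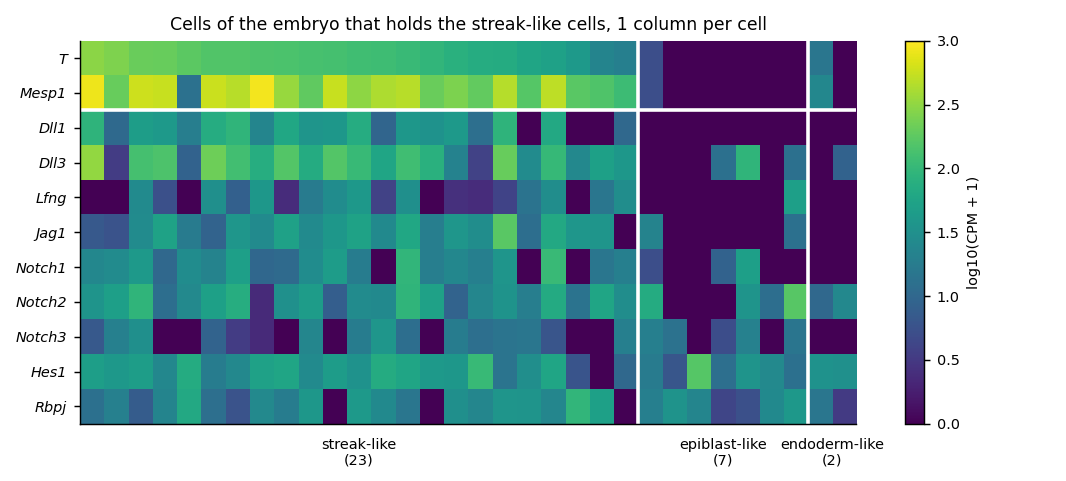
Heat map of log10(CPM + 1) in the 32 cells of the E6.5 embryo that held the streak-like cells, with 1 column per cell (23 streak-like, 7 epiblast-like and 2 endoderm-like) and rows for T, Mesp1 and the 9 members. Dll1 is seen in streak-like columns only, with 20 of 23 above 0, and Dll3 is seen in all 23.

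T is also found in E6.5 cells outside the streak-like class, so the cells with at least 10 CPM of T were compared with those without a T count in the 4 embryos that gave a sum of each. None of the 8 members tested passed with edgeR or DESeq2, none had an unadjusted p of at most 0.05, and 0.00909% of the 11002 genes tested passed. In the embryo of the streak-like cells the T-positive sum had 34.7 CPM of Dll1, 89.5 of Dll3, 11.95 of Lfng and 36.6 of Jag1. In the other 3 embryos the T-positive sums had no Dll1 count and 0.513, 6.48 and 1.46 CPM of Dll3. One of these sums, of 8 cells of embryo 3 of plate P1, had 124.6 CPM of T and 41.5 of Mesp1. The T-positive sum of the streak-like embryo had 119.8 CPM of T and 362.6 of Mesp1. Dll1 reached 10 CPM in 0 of the 31 T-positive cells that were not streak-like, for which the exact 95% interval allows up to 11.2% by the sampling of cells alone, and in 0 of the 137 T-negative cells. Rbpj was higher in the T-positive sum in 4 of 4 embryos, at 45.6, 26.3, 48.9 and 45.7 against 33.5, 25.2, 23.4 and 34.3 CPM, and did not pass the test (log2 fold change 0.51, adjusted p = 0.999). Notch1 was at 21.5 CPM in the T-positive sum of the streak-like embryo and at 21.7 CPM in the T-negative sum of embryo 3 of plate P1. Its log2 fold change from T-negative to T-positive cells was 0.02.

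**Figure D5:**
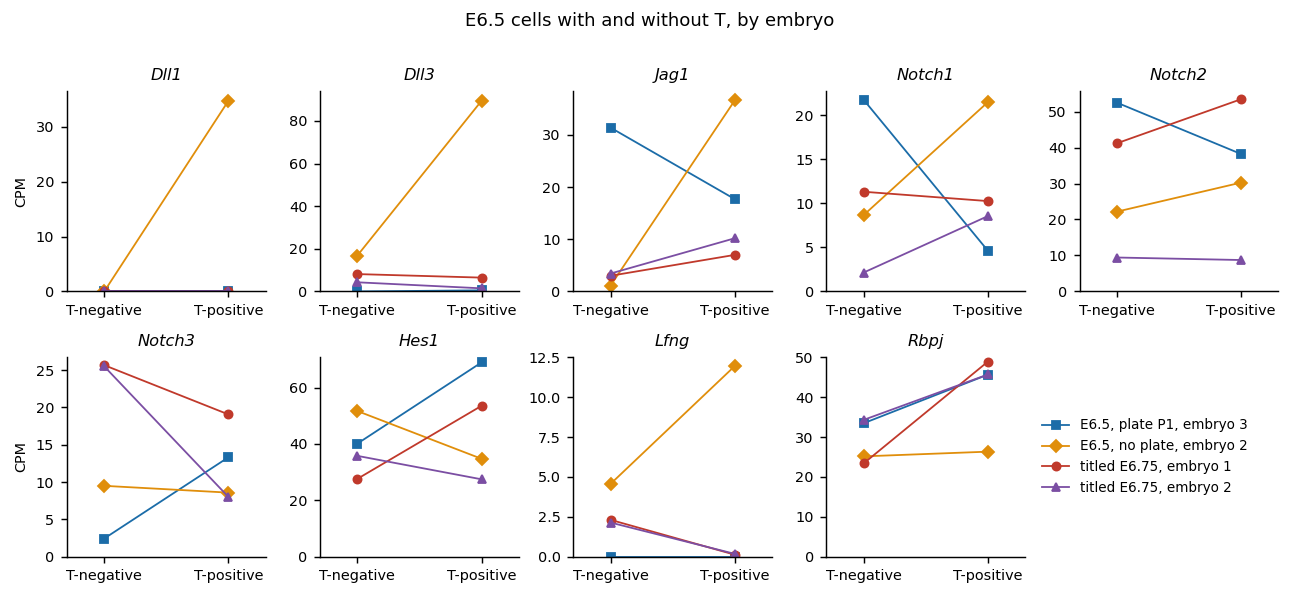
Levels in CPM in T-negative and T-positive cells of the 4 E6.5 embryos with a sum of each, with 1 line per embryo. The T-positive sum of the embryo with the streak-like cells stands apart for Dll1 (34.7 CPM), Dll3 (89.5) and Lfng (11.95), and the other 3 embryos have no Dll1 in T-positive cells.

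The other genes of the pathway, 61 ligands, receptors, glycosyltransferases, proteases, nuclear partners, corepressors, trafficking factors and Hes or Hey targets, gave 8 calls among 48 tested from E3.5 to E4.5 epiblast-like cells, 6 higher and 2 lower, where 20.7% of all genes tested were called. By smallest p these were Dtx1, a Deltex ubiquitin ligase, Tle4, a Groucho corepressor, and Psen2, a catalytic subunit of gamma-secretase. Tle4 went from 27.6 to 208 CPM (adjusted p = 8.56e-06). From E4.5 to E5.5 there were 3 calls of 48 (6.22% of all genes), with Dtx4 higher and the coactivator Maml2 and the deacetylase Hdac2 lower, and from E5.5 to E6.5 also 3 of 48 (8.14% of all genes). In that last step Mib1, the ubiquitin ligase that makes ligands active by endocytosis, rose from 38.7 to 115 CPM (log2 fold change 1.57, adjusted p = 0.0179), Mib2 fell (−3.22) and Maml2 rose. PrE-like cells differed from epiblast-like cells in 6 of 37 genes, 1 higher and 5 lower (14.1% of all genes). Tle4 was at 34.2 CPM in PrE-like and 212 CPM in epiblast-like cells (−2.64, adjusted p = 0.000796), and Hdac1 (−1.12) and Hdac2 (−1.02) were lower as well.

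In E6.5 endoderm-like against epiblast-like cells 1 of 38 was called (8.35% of all genes), the sheddase Adam17 with 91.0 against 35.4 CPM (1.36, adjusted p = 0.0228). From E3.5 to PrE-like cells 6 of 44 were called (14.8% of all genes), 3 higher and 3 lower, led by Psen2, Snw1 and Hdac1, and from PrE-like to E6.5 endoderm-like cells 2 of 44 were called (7.65% of all genes), both higher, Hdac1 and Dtx4. Against streak-like cells 0 of 53 were called and between T-positive and T-negative cells 0 of 42, with none at an unadjusted p of at most 0.05 in either and none called by DESeq2.

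Over the 51 embryo and class sums, the genes whose level ran closest to a member, by Spearman's rho among 9898 genes with a mean of at least 5 CPM, were named as a description, since sums share plates and stages. Notch3 had the closest partners, with Mmp2 at 0.87, Pcbp3 at 0.85 and Slain1 at 0.833. Lfng ran closest to Fads2 (0.772) and Tmem132a (0.688), and Dll1 also ran closest to Tmem132a (0.628) followed by Ogdhl (0.613) and Arhgef17 (0.603). Notch1 had Naa11 (0.776), Notch2 Sfxn1 (0.748), Dll3 Usf1 (0.752) and Jag1 Etv1 (0.723). Rbpj and Hes1 had the weakest closest partners, BC028528 at 0.571 and Tpm1 at 0.557.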

How the data were processed

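The authors deposited raw read counts per gene and cell (reads trimmed with Trim Galore 0.4.3 and aligned with HISAT2 2.0.5 to GRCm38 per the labels' processing notes, quantified in SeqMonk). Strand setting and annotation release are not given in the sources used here. All cell columns matched a sample, and 0 were left unused. Stage, plate and embryo came from the labels. 9 E3.5 cells without an embryo number were taken as 1 embryo. Cells labelled as doubles stayed in, with single cells as an alternative.

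Cells were clustered (scikit-learn 1.9.0, k-means) without the Notch genes and without doublet calling, and named from markers. At E6.5 the rule that had been set (3 clusters) put 122 cells into the streak-like cluster. It was replaced after seeing the data by 4 clusters named by the larger of the endoderm and epiblast marker means, with the epiblast-like cluster that held most cells without a plate name divided again. The part of that cluster with the higher mean of the streak markers was named streak-like. No other cluster was divided.

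Counts were summed per class and embryo (at least 3 cells) and tested with edgeR 4.0.16 (filterByExpr, TMM, quasi-likelihood test, Benjamini-Hochberg), with genes called where the adjusted p did not exceed 0.05 and the absolute log2 fold change exceeded 1. DESeq2 1.42.0 was an alternative. The E3.5 and all epiblast-like sums shared 1 fit, so neighbouring steps share samples. Embryos were counted from the labels. The same embryo gave both classes within a stage, which pairs them. Deviations of paired sums correlated at 0.0342 to 0.144 (E4.5, 5 pairs), 0.0438 to 0.247 (E6.5 endoderm-like and epiblast-like, 8 pairs) and 0.0459 to 0.181 (T-positive and T-negative, 4 pairs). The correlations were low, yet the best one was with the sum of the same embryo in 5 of 5, 5 of 8 and 4 of 4 pairs. The main fit had no block. Intervals of shares of cells are Clopper-Pearson and cover the sampling of cells, not the spread between embryos. Intervals of count ratios cover counting error only, and reads had no molecular identifiers. On simulated data the fit recovered 13% (streak-like against epiblast-like, 14923 genes) to 74.5% (E6.5 against E5.5 epiblast-like, 13273 genes) of 200 genes changed 8-fold. The named genes were the 9 members, at most 3 called genes of the other Notch lists per comparison by smallest p, and up to 3 genes closest to a member by Spearman's rho. The members and lists were chosen with earlier results of these data known.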

Additional observations from a re-analysis of the deposited data

Results flagged for a closer look

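Over 57 groups of 4 to 10 embryo sums, 17 had an embryo far from the others by Dixon's test at the 95% level, which chance would give in about 1 group in 20. Many of these groups are mostly at or near 0. For Dll1 the highest sums were those of E6.75 embryo 2 in endoderm-like cells (8.04 CPM), of E4.5 embryo 5 of plate P2 in epiblast-like (1.67 CPM) and in PrE-like cells (9.15 CPM), and of E6.75 embryo 1 in T-negative cells (0.0429 CPM). Dll3 stood out in the epiblast-like cells of E4.5 embryo 2 of plate P1 (36.0 CPM). Jag1 stood out in the endoderm-like cells of E6.5 embryo 5 of plate P2 (84.3 CPM), at E3.5 in embryo 1 of plate P8 (38.2 CPM) and in the T-negative cells of E6.5 embryo 3 of plate P1 (31.4 CPM). The same E3.5 embryo was highest for Notch2 (36.1 CPM), and embryo 4 of that plate for Hes1 (141 CPM). Notch1 was highest in the endoderm-like cells of E6.5 embryo 8 of plate P3 (2.63 CPM), Hes1 in the PrE-like cells of E4.5 embryo 4 of plate P2 (49.1 CPM) and Lfng in those of embryo 3 of that plate (2.77 CPM).

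The T-positive cells of the E6.5 embryo with the streak-like cells were apart from the other 3 embryos for Dll1 (34.7 CPM), Dll3 (89.5 CPM) and Lfng (11.95 CPM), and were lowest for Rbpj (26.3 CPM). Of these T-positive sums, this was the only one made of streak-like cells, so that class and the embryo cannot be told apart.

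The difference in Rbpj between endoderm-like and epiblast-like cells was itself different at E4.5 and E6.5, by 2.93 on the log2 scale (edgeR interaction, adjusted p = 0.00141). The sums were lower in PrE-like cells in 5 of 5 embryos at E4.5, while at E6.5 the classes overlapped.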

How the results depend on the processing

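The 17 member calls were refitted 596 times under the alternatives. 557 kept their direction and their side of the threshold, 39 lost the call and 0 changed sign, and the 50 member results that were not called gave 12 calls in 1446 refits, of which 79 had the other sign. Refits in which a member did not pass the filter on low counts are not in these numbers. Leaving out an embryo gave 13 of 21 fits for Dll3 in E6.5 endoderm-like against epiblast-like cells. For Dll1 from E5.5 to E6.5 it gave 32 of 36. Beside the losses given with the genes above, the call of Dll1 from E3.5 to E4.5 was lost with DESeq2 and against plate P8 or P9 alone, and that of Dll3 from PrE-like to E6.5 endoderm-like cells with sums of at least 5 cells and with embryos without a plate merged into plate P1. The cause of each loss was not tested.

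The numbers of genes called were 2747, 826 and 1080 for the 3 epiblast steps, 1425 for PrE-like against epiblast-like, 877 for E6.5 endoderm-like against epiblast-like, 1702 for E3.5 to PrE-like, 877 for PrE-like to E6.5 endoderm-like, 8 for streak-like, 1 for T-positive and 241 for the interaction. With DESeq2 they were 1349 for E6.5 endoderm-like against epiblast-like, 1 for streak-like (a gene that was lower), 3 for T-positive and 548 for the interaction. With no filter on low counts the step to E6.5 gave 2894 and E6.5 endoderm-like against epiblast-like 1926. Sums of at least 5 cells gave 1670, 469, 1365 (PrE-like to E6.5 endoderm-like) and 4 (streak-like). Leaving out E6.75 gave 450 for endoderm-like and 4 for streak-like cells, plates P1 to P3 alone gave 565 and 2, and merging gave 4 for streak-like cells. E6.5 embryos without a plate name alone gave 1286 and 220 for the steps to E5.5 and E6.5 and 417 for endoderm-like cells. E3.5 plate P9 alone, chosen after seeing the data, gave 1243, 1621 and 1425 for the steps to E5.5, to E6.5 and from PrE-like cells. A log2 fold change over 2 left 912 for PrE-like against epiblast-like cells. Leaving out an embryo gave 5 to 8 for streak-like cells, the 5 without E6.75 embryo 1.

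The share of calls that were higher went from 42.5% with edgeR to 52.8% with DESeq2 for the step to E6.5 and from 33.3% to 46.8% for PrE-like to E6.5 endoderm-like cells. With the embryo as a replicate block 1508, 672 and 1 genes were called for PrE-like, E6.5 endoderm-like and T-positive cells, Notch3 lost its call in E6.5 endoderm-like cells (−5.64, adjusted p = 0.0614), Dll3 was not tested there because it did not pass the filter, and no other member call changed. At 1 count or more in place of 10 CPM, the shares were 100% for Dll3 and 78.3% for Lfng in streak-like cells, 12.3% for Dll1, 49.6% for Notch1 and 53.5% for Notch3 at E5.5, and 28.2% for Notch1 at E6.5. Of simulated 8-fold changes 13% were recovered for the streak-like sum.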
